A study of Homo sapiens with 12 samples.

Results

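The TCEAL and BEX genes form one family of small, related genes on the long arm of the human X chromosome. The 10 members described here are TCEAL1, TCEAL2, TCEAL3, TCEAL4, TCEAL7, TCEAL8, TCEAL9, BEX2, BEX3 and BEX4. They were chosen by symbol from the 14 family genes, with the low levels of TCEAL3 and TCEAL4 after POLR3A knockdown in view, and they are 10 of the 34318 genes in the table. The 4 other paralogs, TCEAL5, TCEAL6, BEX1 and BEX5, are given beside them. Because the comparison of siPOLR3A with siControl chose the members, its values for the family are a description, and no p-value is given for them. All members lie between 102125688 and 103630953 on chromosome X (GRCh38), a span of 1.51 Mb.

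The cells were HEK293T, an established human line from embryonic kidney that carries the SV40 large T antigen and takes up nucleic acids readily. Polyadenylated RNA was sequenced with a stranded kit in 12 libraries, in 4 groups of 3. The first experiment compared cells given a control siRNA (siControl) with cells given an siRNA against POLR3A (siPOLR3A), the largest subunit of RNA polymerase III, 2 days after transfection. The second compared cells kept for 4 hours in 0.1% DMSO, the vehicle, with cells kept in 25 µM ML60218, a small-molecule inhibitor of RNA polymerase III. The labels do not say whether the replicates of a group came from separate cultures, so the p-values below measure the spread between these libraries, which may be technical.

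TCEAL proteins are named for their resemblance to transcription elongation factor A (TFIIS), the protein that helps a stalled RNA polymerase II to resume. TCEAL1 was described as a nuclear phosphoprotein that modulates transcription in a promoter-dependent way. BEX proteins are short, mostly disordered proteins that are abundant in brain. BEX3, also called NADE, was described as a partner of the neurotrophin receptor NGFR in cell death signalling, and other BEX proteins bind regulators of apoptosis, the cell cycle and ubiquitin ligases. The family is specific to placental mammals, and its genes share a layout in which the coding sequence sits in the last exon.

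The coding parts of TCEAL3 and TCEAL4 hold a tandem repeat, and the 6-base sequence GAGGGA recurs in it. That sequence was already of interest in an earlier examination of these data, and copies in the family were counted with the values known. The stretches below are from GENCODE 29 transcripts and are shown because they belong to the 3 members that were lowest after siPOLR3A relative to siControl. Capitals mark GAGGGA, and the first run of capitals in TCEAL4 holds 2 overlapping copies. The TCEAL4 stretch lies at chrX:103586894-103586981 on the plus strand, the TCEAL3 stretch at chrX:103609185-103609268 on the plus strand, and the TCEAL8 stretch at chrX:103253938-103253967 on the minus strand. Each is inside the coding part of exon 3 of 3.
TCEAL4-208: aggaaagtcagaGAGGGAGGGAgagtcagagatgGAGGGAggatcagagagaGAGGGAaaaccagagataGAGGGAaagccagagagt
TCEAL3-202: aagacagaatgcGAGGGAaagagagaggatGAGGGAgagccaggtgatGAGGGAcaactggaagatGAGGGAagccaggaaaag
TCEAL8-202: tgtgaagaaaatGAGGGAaaaccacagaac

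Within the repeat, neighbouring copies were 18 bases apart, a whole number of codons, in 3 places in TCEAL4 and 3 in TCEAL3. The paralogs TCEAL5 and TCEAL6 had the same spacing in 4 and 2 places. In the most abundant coding isoform of each gene, the coding part held 7 copies in TCEAL4, 5 in TCEAL3, 4 in TCEAL2, 2 in TCEAL7, 1 each in TCEAL8 and BEX2, and 0 in TCEAL1, TCEAL9, BEX3 and BEX4. The 5′ UTR added 1 copy in TCEAL8 and 1 in TCEAL1, and the 3′ UTR of every family gene held 0. Among the other paralogs the coding counts were 6 in TCEAL5, 4 in TCEAL6, 1 in BEX1 and 0 in BEX5. BEX1 and BEX2 carry their single copy in windows that are the same over 30 bases. These are printed because BEX1 and BEX2 differed after siPOLR3A, as given below.
BEX1-201: gatggaaaagctGAGGGAaaagcagttgag
BEX2-202: gatggaaaagctGAGGGAaaagcagttgag

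The promoters of the family also resemble each other. In the RefSeq windows of 250 bases before to 50 bases after each gene start (GRCh38.p14, both strands), the palindrome TCACGTGA was present in 9 of the 13 family genes with an entry, against 1.18% of all 27305 genes. Its core, CACGTG, the E-box, was present in 11 of the 13, against 8.77% of all genes, and every TCACGTGA contains it. Both were searched after the windows had been looked at. Of the 9 members with an entry, 6 held TCACGTGA. The windows are shown for 3 that were far below control after siPOLR3A, for BEX3, and for the paralog BEX1, with capitals on the palindrome. They lie at chrX:103607872-103607899 (TCEAL3, plus strand), chrX:103585494-103585521 (TCEAL4, plus), chrX:103255170-103255197 (TCEAL8, minus), chrX:103376480-103376507 (BEX3, plus) and chrX:103064202-103064229 (BEX1, minus).
TCEAL3: gacgcggcgcTCACGTGAcccgccgggc
TCEAL4: gctgcggcatTCACGTGAtctgcacggg
TCEAL8: gacgcgactcTCACGTGAccaggagtcg
BEX3: cgcgcggcccTCACGTGAcccagagctg
BEX1: cgcacggcccTCACGTGAccgggagctg

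Of the members with the palindrome, TCEAL3, TCEAL4, TCEAL8, TCEAL1 and BEX3 were lower in siPOLR3A than in siControl, by log2 fold changes from −2.65 to −0.33, and TCEAL2 was too low to test. The paralog BEX1, which also holds it, was higher. Without the palindrome, BEX2, BEX4 and TCEAL9 were at −0.19, −0.07 and −0.08, and the paralog BEX5 at −0.24. Because this contrast chose the members and the palindrome was searched afterwards, no link between the palindrome and these values is read. A match here is a description of the sequence and not a bound site.

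Library depth lay between 37008325 and 49479476 estimated reads, and library sizes overlapped between the arms of the first experiment. POLR3A itself stood at 92.2, 93.5 and 86.8 CPM (counts scaled to library size) in siControl and at 19.3, 19.0 and 14.6 CPM in siPOLR3A, a log2 fold change of −2.36 (SE 0.108; edgeR quasi-likelihood test, Benjamini-Hochberg adjusted p = 1.94e-05), which fits the labels. It was also lower after ML60218, by a log2 fold change of −0.38 (SE 0.0411, edgeR adjusted p = 0.000229). The neurofilament genes NEFM and NEFL and the intermediate filament gene VIM, which HEK293 cells express, were present in all libraries, as was the epithelial keratin KRT18, at group means of 25.5 to 35.4 TPM, and at lower levels its partner KRT8 (3.08 to 5.69 TPM). The keratin KRT19 had at most 1 read in a library, and PTPRC and HBG1, genes of blood cells, had 0. ALB, also taken as absent, had 0 to 6 reads in a library. COL1A1, a fibroblast collagen taken as a marker that should be absent, was present at group means of 19.0 to 26.3 TPM. In siPOLR3A, NEFM was lower (log2 fold change −1.39, edgeR adjusted p = 1.04e-05), as were NEFL (−0.68, edgeR adjusted p = 4.15e-11) and VIM (−0.52, edgeR adjusted p = 1.13e-10), and the epithelial gene EPCAM was higher (0.90, edgeR adjusted p = 4.64e-05). INA, another neuronal intermediate filament gene, was higher (0.25, edgeR adjusted p = 0.0061), as were KRT18 (0.14, edgeR adjusted p = 0.012) and COL1A1 (0.32, edgeR adjusted p = 3.68e-05), and KRT8 did not pass (−0.56, edgeR adjusted p = 0.0724). Their part in the results below was not tested.

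Transcript levels per length differed widely within the family. In siControl, TPM (a transcript level scaled for length and for the library total) was highest for BEX3 at 582 ± 14 (SD, n = 3), followed by TCEAL9 at 188 ± 12.3 and TCEAL8 at 186 ± 11, whose ranges overlapped. TCEAL4 came next at 167 ± 1.58, then BEX4 at 90.3 ± 3.94, BEX2 at 71.2 ± 2.15 and TCEAL1 at 46.6 ± 2.94, and these 4 were separated from their neighbours in every library. TCEAL3 was a minor member at 14.4 ± 0.305 TPM, between BEX1 at 20.8 ± 1.05 and BEX5 at 11.9 ± 0.993. TCEAL7 and TCEAL2 were near the limit of detection at 0.574 ± 0.0879 and 0.262 ± 0.139 TPM. TCEAL2 had 23, 14, 20 and 17 reads summed over siControl, siPOLR3A, DMSO and ML60218, and it was below the filter for tests in both experiments. TCEAL5 and TCEAL6 had between 0 and 3 reads in a library.

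The summed level of the 10 members was 1346 ± 42.1 TPM in siControl and 941 ± 10.7 TPM in siPOLR3A, and 1567 ± 54.6 TPM in DMSO and 1546 ± 22.8 TPM in ML60218. BEX3 alone made up 43.2% of the summed members in siControl and 48.9% in siPOLR3A. TCEAL4 went from rank 4 of the 14 family genes in siControl to rank 7 in siPOLR3A, and BEX1 overtook it. RNA was measured in bulk, so fewer cells with a transcript and less of it per cell cannot be told apart.

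**Figure D1:**
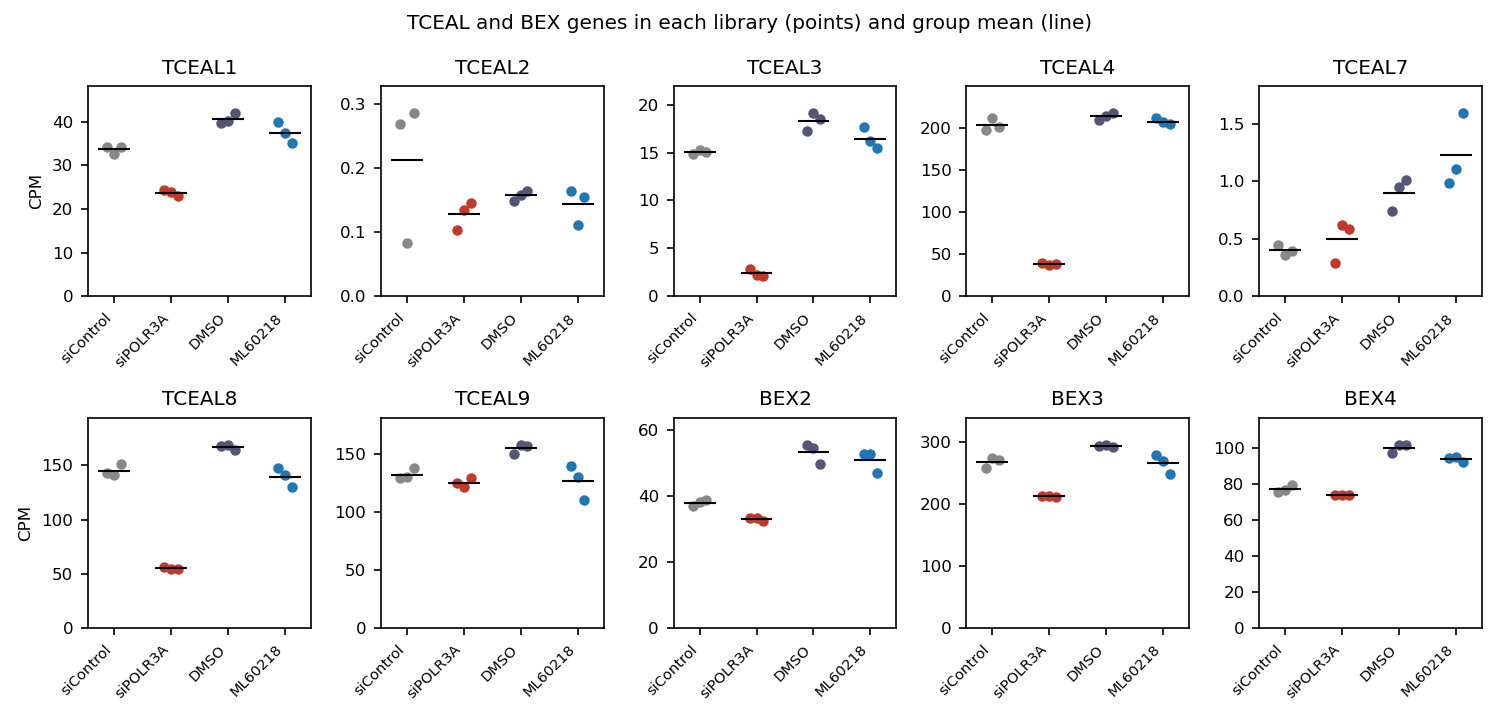
CPM of the 10 members in each of the 12 libraries; points are libraries, lines are group means, and each panel has its own axis from 0. TCEAL3, TCEAL4 and TCEAL8 are far lower in the siPOLR3A libraries than in siControl, while between DMSO and ML60218 the largest ratio is the 1.37-fold of TCEAL7, whose groups overlap.

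TCEAL3 stood at 14.9, 15.3 and 15.1 CPM in siControl and at 2.82, 2.24 and 2.13 CPM in siPOLR3A. The groups were far apart, and the ratio was 6.27-fold lower (log2 fold change −2.65, SE 0.0977). Behind this are 1628 estimated reads summed over siControl and 265 over siPOLR3A, so TCEAL3 is the member with the largest difference and one of the least abundant. TCEAL4, the more abundant of the pair per length (167 against 14.4 TPM in siControl), stood at 197, 211 and 201 CPM against 39.7, 37.1 and 37.8 CPM. It was 5.31-fold lower (log2 fold change −2.41, SE 0.0355), and every siPOLR3A library was below every siControl library by a wide margin.

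TCEAL8 stood at 143, 141 and 151 CPM in siControl and at 55.7, 54.6 and 54.3 CPM in siPOLR3A, which is 2.64-fold lower (log2 fold change −1.40, SE 0.0319). The siPOLR3A libraries were nearly identical to each other. TCEAL1, the best studied of the TCEAL genes, was moderately lower, at 34.1, 32.7 and 34.3 CPM against 24.3, 23.8 and 23.0 CPM (log2 fold change −0.51, SE 0.0451). TCEAL9, also known as WBP5 for its binding to WW domains, hardly differed: 129, 130 and 138 CPM in siControl and 125, 122 and 129 CPM in siPOLR3A (log2 fold change −0.08, SE 0.0322). TCEAL7, described as a repressor of MYC and NF-κB activity, stood below 1 CPM in all 6 libraries, and its groups overlapped (log2 fold change 0.30, SE 0.341).

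The BEX members differed much less than TCEAL3 and TCEAL4. BEX3 stood at 258, 274 and 271 CPM in siControl and at 214, 214 and 211 CPM in siPOLR3A (log2 fold change −0.33, SE 0.0261). BEX2, which has been linked to survival of breast cancer cells, stood at 36.8, 38.1 and 38.8 against 33.4, 33.4 and 32.5 CPM (log2 fold change −0.19, SE 0.0391). BEX4, a protein found on microtubules, stood at 75.8, 76.8 and 79.5 against 73.8 CPM in each siPOLR3A library (log2 fold change −0.07, SE 0.0293). All 3 were lower without overlap, by amounts that shrink in this order, where 63.4% of all genes tested had no overlap. BEX4 was at −0.01 with upper quartile scaling and at −0.02 with total counts.

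Of the 9 members that passed the filter on low counts, 6 were lower at an adjusted p under 0.05 and 0 were higher, where 29.2% of all 15404 genes tested were lower by that rule and 56.6% were called in either direction. The groups did not overlap for 8 of the 9, and 63.4% of all genes tested had no overlap. The median log2 fold change of the 9 was −0.33, beside 0.005 over all genes. A decrease of at least 2-fold was called for 1.94% of all genes, and among the members TCEAL3, TCEAL4 and TCEAL8 were past it. Since the contrast chose the members, nothing is read from these counts, from the median or from the 2-fold decreases.

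BEX1 went the other way. It stood at 9.75, 9.32 and 9.25 CPM in siControl and at 20.2, 20.8 and 18.6 CPM in siPOLR3A, 2.10-fold higher (log2 fold change 1.07, SE 0.0627), and no library overlapped. Its nearest relative in sequence, BEX2, was slightly lower, although both carry the printed window. In the DMSO group of the other experiment BEX1 stood at 41.4 ± 2.62 TPM, close to the 44.0 ± 2.82 TPM of siPOLR3A and above the 20.8 ± 1.05 TPM of siControl. The controls of the experiments differ in transfection, vehicle, time and the cell name in the sample titles, and these cannot be told apart. BEX5 was lower by a log2 fold change of −0.24 (SE 0.0984).

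**Figure D2:**
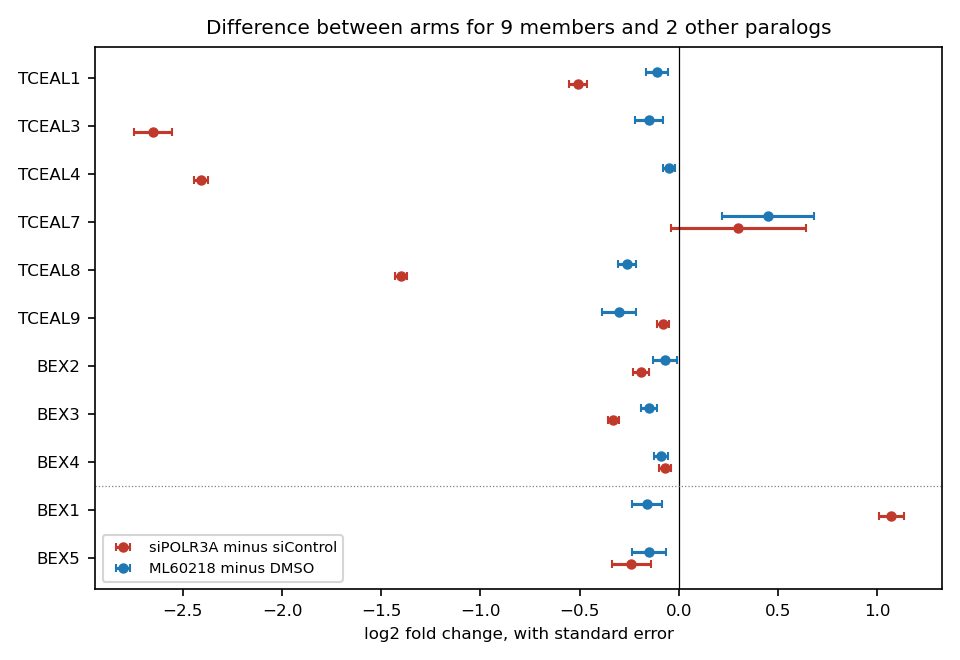
Log2 fold change with its standard error for 9 members and, below the dotted line, for BEX1 and BEX5, in siPOLR3A against siControl (red) and ML60218 against DMSO (blue). The red points spread from −2.65 for TCEAL3 to 1.07 for BEX1, while the blue points lie between −0.30 and 0.45.

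Reads of paralogs can be mistaken for each other, and the deposited estimates divide them among transcripts. Of the 31-base words of the main TCEAL3 transcript, 37.8% also occur in transcripts of other genes, most of them TCEAL6 and TCEAL5. Those same estimates gave TCEAL6 and TCEAL5 almost no reads. The share was 9.4% for TCEAL4, 3.4% for TCEAL1, 12.7% for BEX2 and 12.5% for BEX1, which share mostly with each other, and 0 for TCEAL7, TCEAL8, BEX3 and BEX5. TCEAL8 was 2.64-fold lower with no shared word, and the part of shared words in the family values was not tested. The annotated TCEAL3 gene reaches to 103629690 through 1 long isoform and overlaps TCEAL1, which starts at 103628704 on the same strand, so reads there may be assigned to either. That isoform, TCEAL3-204, held 0.234 and 0.227 TPM in the siControl and siPOLR3A groups.

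The isoforms of TCEAL4 differed in how far they were below control. The main isoform, TCEAL4-208, stood at 126, 124 and 126 TPM in siControl and 19.1, 18.3 and 17.1 TPM in siPOLR3A (log2 fold change −2.83, SE 0.0509), so its share of the gene went from 75.0% to 51.3%. TCEAL4-212, another spliced form, was at 19.1 and 2.56 TPM on average (−2.94, SE 0.341). TCEAL4-204, whose first exon runs through the whole first intron of the main isoform, stood at 7.83, 6.02 and 7.97 TPM in siControl and 6.59, 6.83 and 5.31 TPM in siPOLR3A. Its groups overlapped (−0.25, SE 0.161), and its share of the gene went from 4.35% to 17.7%. TCEAL4-210, annotated as a retained intron, had 1.13 and 1.42 TPM and was below the filter.

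Annotated isoforms that span a whole intron of the main isoform were also measured for TCEAL1 and TCEAL9. TCEAL1-204 was lower by a log2 fold change of −0.47 (SE 0.244), near the −0.51 of its gene. TCEAL9-203 was at 0.07 (SE 0.12), near the −0.08 of its gene. The difference between isoforms of a gene was not tested. TCEAL4-211, with 249 bases in the introns of the main isoform, was at −4.90 (SE 1.08), from a siControl mean of 1.27 TPM. TCEAL4-202, TCEAL4-206 and TCEAL4-209 carry 7 copies, like TCEAL4-208, and were at −0.88, −1.18 and −0.41. TCEAL4-204, at −0.25, and TCEAL4-211, at −4.90, each carry 2 copies in the transcript.

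For the other members, the 2 abundant TCEAL3 isoforms were lower: TCEAL3-202 stood at 7.41, 6.49 and 8.29 against 1.52, 1.32 and 1.71 TPM, and TCEAL3-201 at 6.54, 7.01 and 5.93 against 0.665, 0.463 and 0 TPM. Another tested form, TCEAL3-203, stood at 0.246 and 0.215 TPM on average (log2 fold change −0.19, SE 0.821). All 3 TCEAL8 isoforms were lower, at log2 fold changes from −1.63 to −0.80. TCEAL9 isoforms moved apart under a nearly level gene: TCEAL9-201 stood at 57.7, 49.3 and 63.2 against 74.8, 78.4 and 81.1 TPM (0.45, SE 0.08), and TCEAL9-202 at 129, 122 and 132 against 106, 102 and 107 TPM (−0.31, SE 0.0307). BEX3-201, the larger BEX3 form, was at −0.53 (SE 0.0453) and BEX3-204 at −0.11 (SE 0.0411). Of the 41 isoforms of the members in the table, 30 were tested, with 12 called lower and 1 higher, where 6.43% of all isoforms tested were called lower and 4.87% higher. Because this contrast chose the members, and isoforms of the same gene are not independent, nothing is read from these counts. How reads split among isoforms is an estimate of the quantification.

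**Figure D3:**
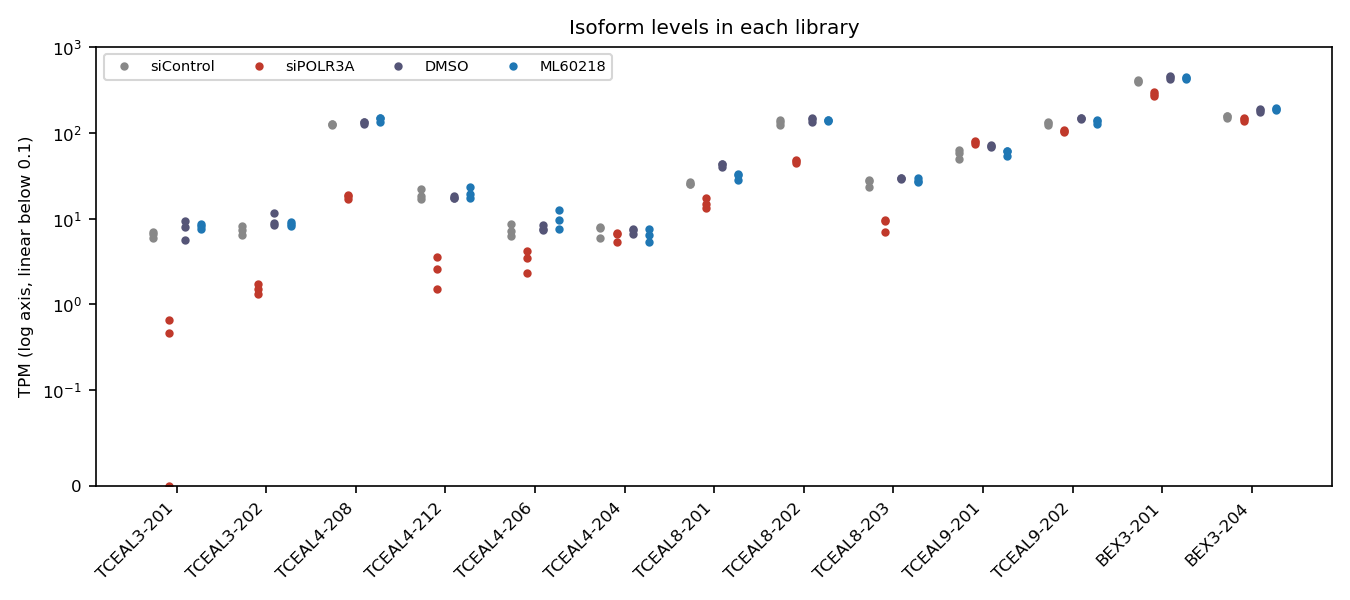
TPM of 13 isoforms of TCEAL3, TCEAL4, TCEAL8, TCEAL9 and BEX3 in each library, on an axis that is logarithmic above 0.1; colours mark the groups. The siPOLR3A points of TCEAL4-208 and TCEAL4-212 are well below siControl, whereas those of TCEAL4-204 overlap it and those of TCEAL9-201 are above it.

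Across all genes, coding copies of GAGGGA were set beside the siPOLR3A comparison to place the family. Among genes with no copy in the 3′ UTR, as in the family, the median log2 fold change was 0.035 for the 6440 genes with 0 coding copies, −0.005 for 1 copy, −0.031 for 2, −0.049 for 3 or 4 and −0.168 for the 68 genes with 5 or more. TCEAL3 and TCEAL4, chosen on this contrast, are among those 68, so nothing about the family is read from that class. After ML60218 the medians of the same classes went the other way, at −0.020, 0.002, 0.048, 0.063 and 0.164. The median coding length of the classes rose with the copies, from 999 to 6012 bases, and its part was not tested. TCEAL3 and TCEAL4, with coding parts of 600 and 645 bases, are short for genes with so many copies.

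By copies per 1 kb of coding sequence, TCEAL4 had rank 3 of 14301 genes with 10.9, TCEAL3 rank 8 with 8.3 and TCEAL7 rank 10 with 6.7. Neighbours in that order, looked up after the values were known, lay on both sides of 0: SYCE1L, at rank 1 with 13.9, stood at a log2 fold change of 0.51, and PARP6, with 12.7, at 0.39. C4orf3 at rank 5 stood at −0.52, MGP at rank 6 at −0.44 and SMTN at rank 7 at −0.15. TCEAL7 was at 0.30. TCEAL8, at −1.40, had 2.8 per 1 kb, close to the 2.7 of BEX1 at 1.07. A high density of the sequence was found with values in both directions.

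**Figure D4:**
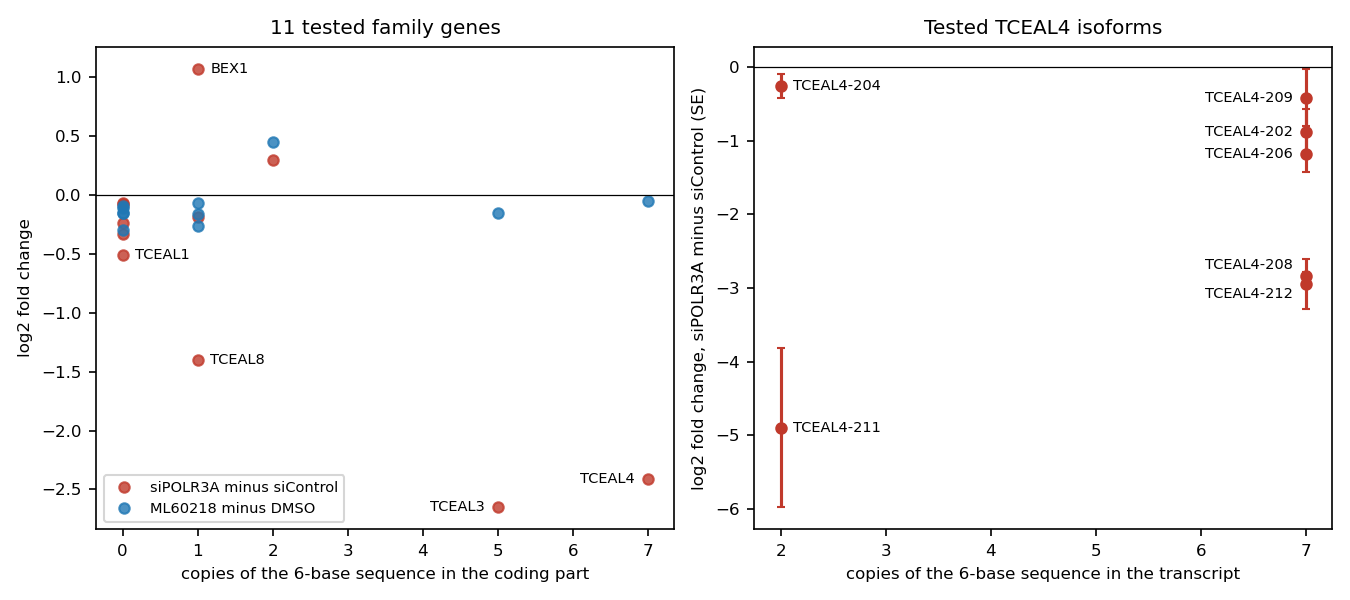
Left, log2 fold change of the 11 tested family genes in both experiments against the number of copies of the 6-base sequence in the coding part; right, log2 fold change with its standard error of tested TCEAL4 isoforms after siPOLR3A against copies in the transcript. TCEAL3 and TCEAL4, with 5 and 7 copies, are lowest in red and near 0 in blue, and TCEAL4 isoforms with 7 copies range from −2.94 to −0.41. The isoforms with 2 copies, TCEAL4-204 and TCEAL4-211, are at −0.25 and −4.90.

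ML60218 for 4 hours was a separate comparison, with its own controls and a contrast that was not used to choose the members. TCEAL8 fell from 168, 169 and 164 CPM in DMSO to 148, 141 and 130 CPM (log2 fold change −0.26, SE 0.0455; edgeR quasi-likelihood test, Benjamini-Hochberg adjusted p = 0.00206). TCEAL9 fell from 150, 158 and 157 to 140, 130 and 110 CPM (−0.30, SE 0.0851; edgeR adjusted p = 0.0334). BEX3 fell from 295, 296 and 292 to 279, 270 and 249 CPM (−0.15, SE 0.0408; edgeR adjusted p = 0.0174). The drops were between 1.11-fold and 1.23-fold, and the groups did not overlap for any of the 3.

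TCEAL3 and TCEAL4, the members farthest below control after siPOLR3A, did not pass the test after ML60218. TCEAL3 stood at 17.3, 19.1 and 18.5 CPM in DMSO and 17.7, 16.2 and 15.5 CPM in ML60218 (log2 fold change −0.15, SE 0.0691; edgeR adjusted p = 0.108). TCEAL4 stood at 209, 214 and 217 against 211, 207 and 204 CPM (−0.05, SE 0.0307; edgeR adjusted p = 0.266). For both genes the DMSO and ML60218 libraries overlapped. The difference between the experiments was not tested, because the choice of the members fixed one side of it, and they differ in agent and duration.

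The other members were TCEAL1 (log2 fold change −0.11, edgeR adjusted p = 0.124), TCEAL7 (0.45, edgeR adjusted p = 0.151), BEX2 (−0.07, edgeR adjusted p = 0.369) and BEX4 (−0.09, edgeR adjusted p = 0.0627), and none of these passed. In all, 3 of 9 tested members were called lower and 0 higher, where 20.9% of all 15461 genes tested were called lower and 39% were called in either direction. The groups did not overlap for 4 of 9 members, and 51.9% of all genes had no overlap, so neither count was far from the background. The median log2 fold change of the members was −0.11, beside 0.005 over all genes. The ML60218 library of replicate 3 was the lowest of its group for 8 of the 9 members. The count of members called was 1 without DMSO replicate 1, 1 without DMSO replicate 2 and 5 without ML60218 replicate 1.

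The scale mattered at this effect size. On log2(TPM + 1) with limma, where the median of all genes rose by 0.107, TCEAL1, TCEAL4, BEX2 and BEX4 changed sign to 0.04, 0.10, 0.06 and 0.04, and TCEAL8 was at −0.10 (limma adjusted p = 0.138). TCEAL9 was the member still called on that scale, at −0.16 (limma adjusted p = 0.0418). Among the 32 member isoforms tested, 1 was called, TCEAL8-201, which fell from 43.6, 43.3 and 40.5 to 32.4, 33.2 and 28.4 TPM (log2 fold change −0.59, SE 0.0984; edgeR adjusted p = 0.0499). Of all isoforms tested, 1.28% were called lower and 0.817% higher, or 2.09% in all. BEX1 was at −0.16 (edgeR adjusted p = 0.116) and BEX5 at −0.15 (edgeR adjusted p = 0.186), so neither passed.

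The genes around the family were examined in the same fits. The interval ran from 101.63 to 104.13 Mb on chromosome X and held 64 other genes in the table. After siPOLR3A, 18 were tested, with 3 called higher and 4 called lower (27.4% and 29.2% of all genes) and a median log2 fold change of −0.02. The largest falls among well-expressed ones were TMSB15B, a beta-thymosin (−0.30, edgeR adjusted p = 0.000646), GPRASP3 (−0.22, edgeR adjusted p = 0.00831) and ARMCX5 (−0.11, edgeR adjusted p = 0.0179), and SLC25A53, a mitochondrial carrier, rose (0.18, edgeR adjusted p = 0.0375). ARMCX5 lost its call under 9 of 16 alternatives (adjusted p up to 0.225) and SLC25A53 under 7 (up to 0.207). With upper quartile scaling 5 were higher and 2 lower. Without siPOLR3A replicate 3 the count was 4 in place of 7. MORF4L2, the chromatin gene that starts next after TCEAL1 among tested genes, was called lower at −0.09 (edgeR adjusted p = 0.00313). The 2-fold or larger decreases of the interval were those of TCEAL3, TCEAL4 and TCEAL8.

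After ML60218, 17 interval genes were tested, with 3 called higher and 2 lower (18.1% and 20.9% of all genes) and a median of 0.04. TMSB15A fell by a log2 fold change of −0.46 (edgeR adjusted p = 0.00118) and GPRASP3 by −0.30 (edgeR adjusted p = 0.00115). ZMAT1, a zinc finger gene, was named after its values were seen, being the highest point of the interval in both experiments, at 1.38 (edgeR adjusted p = 0.000742) and 1.31 (edgeR adjusted p = 0.0328).

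**Figure D5:**
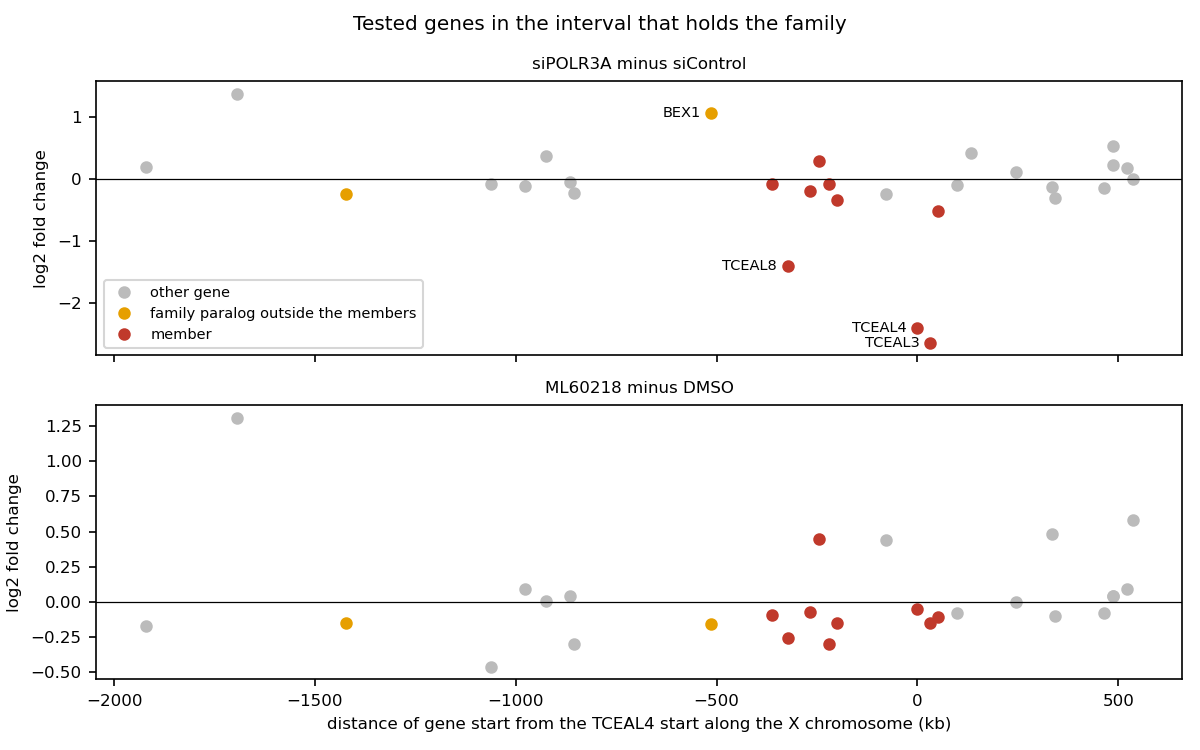
Log2 fold change of each tested gene of the interval against the distance of its start from the TCEAL4 start in kb, after siPOLR3A (top) and ML60218 (bottom); red are members, orange BEX1 and BEX5, grey other genes. The top panel shows TCEAL3, TCEAL4 and TCEAL8 far below genes within 500 kb on either side, and the bottom panel shows no such points.

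Genes of transcription elongation, to which the TCEAL genes owe their name, were compared as a list of 38. Of the 37 tested after siPOLR3A, 14 were called lower and 11 higher, with a median of 0.01, where 29.2% and 27.4% of all genes were. With upper quartile scaling they were 12 lower and 16 higher. SSRP1, a subunit of the histone chaperone FACT, fell (log2 fold change −0.88, edgeR adjusted p = 9.61e-13), as did AFF1 of the super elongation complex (−0.62, edgeR adjusted p = 7.18e-10) and LEO1 of the PAF1 complex (−0.34, edgeR adjusted p = 1.24e-06). ELOA, the active subunit of elongin, rose (0.57, edgeR adjusted p = 4.93e-10), with the kinase CDK9 (0.48, edgeR adjusted p = 1.47e-06) and the ELL partner EAF1 (0.37, edgeR adjusted p = 4.92e-07).

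After ML60218, 12 of the 37 were called lower and 7 higher, with a median of −0.05, where 20.9% and 18.1% of all genes were. The balance turned with the scaling, to 6 lower and 9 higher with total counts and 3 lower and 7 higher with limma on log2(TPM + 1). HEXIM1, the inhibitor of P-TEFb, fell from 89.5, 93.8 and 94.0 to 69.7, 55.3 and 57.0 CPM (log2 fold change −0.61, edgeR adjusted p = 0.00176). SUPT4H1 of DSIF (−0.48, edgeR adjusted p = 0.00196) and ELOC of elongin (−0.39, edgeR adjusted p = 0.000365) fell too. AFF4 (0.28, edgeR adjusted p = 0.00259), TCEANC2 (0.23, edgeR adjusted p = 0.0023) and CCNT1, the cyclin of P-TEFb (0.18, edgeR adjusted p = 0.0177), rose. CCNT1 lost its call under 5 of 16 alternatives (adjusted p up to 0.126). The count called was 10 without DMSO replicate 3, in place of 19.

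Among 9 genes whose products are described as partners or effectors of BEX proteins, 2 were called lower and 1 higher after siPOLR3A, where 56.6% of all genes were called in either direction. YWHAG, a 14-3-3 protein, fell from 388, 391 and 400 to 220, 227 and 222 CPM (log2 fold change −0.82, edgeR adjusted p = 2.55e-12), and LMO2, a transcription cofactor, fell from 4.97, 4.92 and 5.03 to 3.05, 2.97 and 3.87 CPM (−0.59, edgeR adjusted p = 0.000893). FEM1B, a substrate receptor of CUL2 ubiquitin ligases, rose (0.24, edgeR adjusted p = 7.14e-06). After ML60218, 2 were called higher and 4 lower, where 39% of all genes were called. NGFR, the receptor bound by BEX3, rose from 1.61, 2.17 and 1.69 to 2.77, 4.17 and 5.13 CPM (1.14, SE 0.228; edgeR adjusted p = 0.00491), while BEX3 itself was slightly lower. FEM1B rose again (0.34, edgeR adjusted p = 0.0028), and MAGED1 (−0.13, edgeR adjusted p = 0.00991), YWHAE (−0.14, edgeR adjusted p = 0.0207), YWHAG (−0.17, edgeR adjusted p = 0.00208) and NHLH1 (−1.07, edgeR adjusted p = 0.0233, under 0.5 CPM) fell. NHLH1 lost its call under 6 of 15 alternatives (adjusted p up to 0.0911) and YWHAE under 5 of 16 (up to 0.881).

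The genes whose levels followed TCEAL3 and TCEAL4 most closely were found by Pearson correlation of log2 CPM over the 12 libraries, among 10386 genes. The correlations are a description, since the 12 libraries fall into 1 low group and 3 high ones. For TCEAL4 they were HMGN1, a nucleosome-binding protein (r = 0.9993), the splicing factor SF3B1 (0.9984) and the histone variant gene MACROH2A2 (0.9973). For TCEAL3 they were SARNP, of the mRNA export machinery (0.9976), the protease inhibitor SERPINE2 (0.9976) and the lactate transporter SLC16A1 (0.9975). The siPOLR3A log2 fold changes of these 6 were smaller than those of the genes they follow, at −1.48 for HMGN1, −1.18 for SF3B1, −1.48 for MACROH2A2, −1.09 for SARNP, −1.51 for SERPINE2 and −1.94 for SLC16A1.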

How the data were processed

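Per the file headers, the deposited table gives, for 194142 Ensembl transcripts in each of 12 libraries, an estimated count and a TPM value as a salmon-type program writes them. Per the submitters' processing notes, bcl2fastq 2.20, Trim Galore, DESeq2 and hg38 were used. The program's version, settings and transcript release are not given in the sources used here. The design had assumed counts per gene, so the deposited estimated counts of the 158359 transcripts (81.6%, holding 91.03% to 91.63% of reads) found in GENCODE 29 by stable identifier were summed per gene and rounded. TPM values were summed in the same way.

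edgeR 4.0.16 in R 4.3.3 was run separately on the 6 libraries of each experiment (filterByExpr with a minimum count of 10 and a total of 15; TMM scaling; robust two-sided quasi-likelihood test; Benjamini-Hochberg over all genes or all isoforms). A call is an adjusted p under 0.05. With 3 libraries against 3, an exact permutation test cannot go below p = 0.1. The fit was tested on simulated data. Alternatives used DESeq2 1.42.0, limma 3.58.1 on log2(TPM + 1), other scalings and filters, a length offset, and each library left out. Further ones used a replicate block, a fit of all 12 libraries, and unmatched transcripts added to the gene listed on both sides of them.

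The members and lists were chosen with earlier results of these data known. Named are all members and paralogs, POLR3A, the markers, every BEX partner called, the 3 called genes with the largest rise and the 3 with the largest fall of each list (from an average log2 CPM of 3 upwards), and the 3 genes most like TCEAL3 and TCEAL4. Other names were chosen after their values were seen. Copies of 6-base and promoter sequences were counted in GENCODE 29 transcripts and RefSeq windows. For most isoforms the GENCODE 29 sequence is an older version than the deposited one. TCEAL7 was not in the promoter table.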

Additional observations from a re-analysis of the deposited data

How the results depend on the processing

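After siPOLR3A, the count of members called lay between 6 and 8 under the 16 alternatives. Over all genes, the number called ran from 6840 with limma to 9163 with unmatched transcripts added. Since this contrast chose the members, nothing is read from how steady their count was. Log2 fold changes lay between −2.79 and −2.21 for TCEAL3 and between −2.44 and −2.21 for TCEAL4. They came close to 0 for BEX4 (−0.08 to −0.01) and TCEAL9 (−0.10 to −0.01). After ML60218, the 3 members called became 1 with upper quartile scaling and 1 with limma on log2(TPM + 1), and 1 to 5 when a library was left out. TCEAL8 lost its call with limma (adjusted p = 0.138), TCEAL9 under 6 alternatives (adjusted p up to 0.0942) and BEX3 under 5 (up to 0.861). POLR3A lost its ML60218 call with limma (adjusted p = 0.0512).

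The 1 isoform called after ML60218 became 8 with DESeq2 and 5 in a fit of all 12 libraries. It became 0 with RLE size factors, total counts, no low filter or limma, and 0 in each fit without 1 library. With edgeR, 11 of the 32 had an unadjusted p under 0.05 in the reported fit, and 7 to 11 when a library was left out. Interval genes called after siPOLR3A were 4 with DESeq2, 4 with limma and 4 to 8 with a library left out, in place of 7. After ML60218 they were 3 with a length offset and 4 to 6 with a library left out, in place of 5. Elongation genes called were 15 with limma after siPOLR3A, in place of 25 (21 to 26 with a library left out), and 10 with limma after ML60218, in place of 19 (10 to 21). MAGED1 after ML60218 went to 0.00 with limma (call lost under this and 2 other alternatives), GPRASP3 lost its call under 1 alternative after siPOLR3A and 2 after ML60218, and YWHAG under 1 after ML60218. The cause of these shifts was not tested.

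Of all genes called, 48.4% were higher after siPOLR3A, and 58.7% with upper quartile scaling. After ML60218 the share was 46.4%, against 82.2% with limma on TPM, 67.0% for libraries scaled by totals, and 58.6% for the upper quartile.

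Replicate numbers gave no sign of a pairing of the libraries. Correlations of same-numbered deviations were −0.0285, 0.0428 and −0.123 in the first experiment and −0.0365, 0.0515 and −0.0461 in the second. Those of different-numbered libraries ran from −0.0932 to 0.123 and from −0.0373 to 0.074. With deviations from means of 3 libraries, such values cannot exclude that same-numbered libraries shared a culture or a day. With the replicate block, member isoforms called after ML60218 went from 1 to 0 (7 with an unadjusted edgeR p under 0.05), members called after siPOLR3A from 6 to 7, SLC25A53 lost its call (adjusted p = 0.0589), and LDB1, a BEX partner, gained one after siPOLR3A (adjusted p = 0.0473). Depth limits TCEAL2, TCEAL5, TCEAL6 and TCEAL7, for which no difference was detectable.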
